A study of Mus musculus with 25 samples.

Results

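Cytoplasmic ribosomal proteins are the protein parts of the ribosome, and each ribosome holds 1 copy of nearly every one of them, so their genes are made in large and roughly balanced amounts. Those named Rpl belong to the large subunit, which joins amino acids, and those named Rps to the small subunit, which reads the messenger RNA. Most of their messenger RNAs are short and begin with a run of pyrimidines, the terminal oligopyrimidine tract, through which the growth pathway of mTOR and the RNA-binding protein Larp1 controls how much of them is translated. In sensory neurons ribosomes fill the cell body, where the large cells of a ganglion make the proteins of long axons.

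The ribosomal protein genes described here were all genes of the deposited table whose symbol began with Rpl or Rps, followed by a number and an optional a, l, x or y, and whose mean was at least 10. Kinase genes and entries named as pseudogenes were not taken, and 2 further symbols were left out by the rule and are not analysed here. The rule gave 72 genes of 16220 listed, 42 of the large and 30 of the small subunit, and all 72 passed the filter on the mean. In the annotation 71 were protein-coding, and Rps4l, a copy of Rps4x, was a transcribed processed pseudogene. A further 6 symbols of the same form had no row in the table used here: Rpl10l, Rpl24, Rpl32l, Rpl39l, Rpl41 and Rpl6l. The 72 genes lay on 19 chromosomes.

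The samples were dorsal root ganglia, the sensory ganglia beside the spinal cord, of 25 BXD strains at 8 weeks of age, with 1 library for each strain. BXD strains are inbred lines descended from the F2 of C57BL6/J and DBA2/J mice, every strain carries a fixed mixture of both parents' alleles, and the labels give no treatment. By the laboratory code that ends the strain name, 9 strains were RwwJ and 16 were TyJ, and this ending was the only grouping in the labels. How many animals went into a library, and of which sex, is not given in the sources used here. The spread between strains holds genotype, animal, dissection and library together, and every p-value below measures a difference against that spread.

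Values are the authors' read counts, scaled to a common upper quartile and rounded, and are called scaled counts. Totals were 24637919 to 26860283 scaled counts a library, from an estimated 20070000 to 40180000 reads (median 23030000, from the 24 libraries in which the step between low values was clear). At this depth the expected counting error was computed at each gene's mean level. It was 0.308% of the variance between strains for the median ribosomal protein gene and 2.21% at most. This understates it for Rpl3l, which had 2, 3 and 4 scaled counts in its lowest strains. The neuronal markers of the tissue were high in every library: Tubb3, a neuronal tubulin, had 70436 to 109907 scaled counts and Prph, a filament of sensory neurons, 43576 to 78205. Markers of other tissues also varied, with summed levels of 10 skeletal muscle genes from 412 to 47913 in RwwJ and from 641 to 32637 in TyJ strains, and of 8 spinal cord genes from 363 to 13738 in RwwJ and from 247 to 5245 in TyJ strains. BXD48 had the highest spinal cord sum, and BXD21, BXD36 and BXD40 had the highest values of short against long transcripts, a measure described below. Results are therefore also given without these libraries where that matters.

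The starts of the genes are shown first, because the run of pyrimidines is the feature the family is known for. RefSeq promoter entries (build GRCm38.p6) were matched by symbol for 53 of the 72 genes, with 65 promoters between them, and 19 genes had none. The windows below run from 30 bases before to 20 bases after the annotated start on the strand of the gene, written in the direction of transcription, and capitals mark CTTTCC or CTCTTT. They are genes whose levels or spread the text turns on: Rps21, Rps15, Rpl38 and Rpl13a were among those with the most scaled counts per kilobase, Rpl4 varied least, Rpl34 and Rpl35 varied steeply, Rpl15 had the smallest p between the groups, Rps27 and Rps27l are a pair of copies, and Rpl3l is a copy made in muscle. For Rps21, Rpl34, Rps27l and Rpl3l the table held 2 starts, of which the one with the lower coordinates is shown. The choice is not a sample of the family: 6 of these 11 windows hold a run in capitals, a larger share than among all its promoters, given after them.
Rps21, chr2:180257349-180257398, plus strand: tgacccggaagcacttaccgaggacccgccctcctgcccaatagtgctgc
Rps15, chr10:80292401-80292450, plus strand: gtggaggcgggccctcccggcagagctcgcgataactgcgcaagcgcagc
Rpl38, chr11:114668550-114668599, plus strand: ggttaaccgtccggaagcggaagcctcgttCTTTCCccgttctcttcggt
Rpl13a, chr7:45128726-45128775, minus strand: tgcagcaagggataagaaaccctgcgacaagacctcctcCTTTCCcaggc
Rpl4, chr9:64173357-64173406, plus strand: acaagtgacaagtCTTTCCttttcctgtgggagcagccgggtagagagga
Rpl34, chr3:130730318-130730367, minus strand: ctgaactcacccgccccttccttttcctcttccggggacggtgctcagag
Rpl35, chr2:39005112-39005161, minus strand: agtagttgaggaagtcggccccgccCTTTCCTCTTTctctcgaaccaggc
Rpl15, chr14:18270967-18271016, minus strand: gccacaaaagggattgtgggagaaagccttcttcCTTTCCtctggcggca
Rps27, chr3:90213629-90213678, minus strand: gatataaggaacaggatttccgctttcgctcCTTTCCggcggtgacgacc
Rps27l, chr9:66946056-66946105, plus strand: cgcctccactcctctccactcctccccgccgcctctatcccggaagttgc
Rpl3l, chr17:24727796-24727845, plus strand: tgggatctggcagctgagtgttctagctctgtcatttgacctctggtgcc

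In Rpl38 the tract began at the annotated start, in Rps27, Rpl15 and Rpl13a it began within the next bases, in Rpl35 it lay across the start and in Rpl4 upstream of it. The windows of Rps21, Rps15, Rpl34, Rps27l and Rpl3l held neither 6-letter run. Counting either run on the strand of the gene within 30 bases of the start, 18 of the 65 promoters held one (27.7%), against 4.83% of all 32851 promoters in the table. Over the whole promoter, from 250 bases before to 50 after the start and on both strands, CTTTCC was in 47.7% of the promoters of ribosomal protein genes and 26.6% of all promoters, and CTCTTT in 47.7% and 23.0%. The 2 runs overlap in CTCTTTCC. The letters CCGGAAG, the core of sites bound by ETS factors such as Gabpa, were in 33.8% against 8.86%. AANATGGC, the core of sites bound by Yy1, was in 13 of the 65 promoters, against 6.05% of all. TATAAA was in 7.69% against 13.6%. On the strand of the gene within 30 bases of the start, TATAAA was in 3.08% (2 promoters) against 2.02%. There CCGGAAG was in 13.8% against 2.0%, and AANATGGC in 0.0% against 0.983%. A match is a description of the letters, not of binding.

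Ribosomal protein genes took up between 1.08% and 2.23% of all scaled counts, so their share differed 2.07-fold between the lowest strain, BXD68, and the highest, BXD40. In the 9 RwwJ strains the share was 1.08% at the lowest, 1.40% at the median and 1.89% at the highest, and in the 16 TyJ strains it was 1.12%, 1.84% and 2.23%. The groups overlapped over most of this range: of the 6 strains under 1.3%, BXD68, BXD73 and BXD60 were RwwJ and BXD16, BXD28 and BXD13 were TyJ. The 7 strains over 2% were all TyJ (BXD5, BXD36, BXD11, BXD9, BXD15, BXD1 and BXD40). In this bulk tissue fewer cells of a type and less RNA per cell cannot be told apart.

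The subunits moved in step. Large-subunit genes made up 0.802% ± 0.14 of the counts in RwwJ strains (SD, n = 9) and 0.995% ± 0.202 in TyJ strains (SD, n = 16). Small-subunit genes made up 0.646% ± 0.135 in RwwJ and 0.813% ± 0.185 in TyJ strains. Over the 25 libraries, which share the same totals for both sums, the share of the small subunit followed that of the large with a Pearson r of 0.99. The share itself does not depend on the scaling of a library, and adding 10 further ribosomal protein genes with other symbols gave 1.24% to 2.54%.

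**Figure D1:**
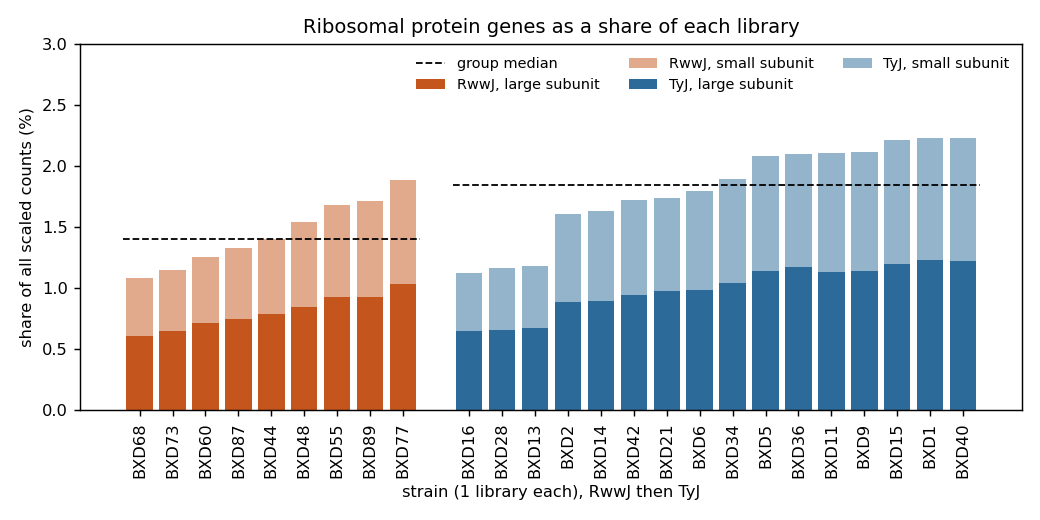
Share of all scaled counts (%) taken by the 72 ribosomal protein genes in each of 25 strains, RwwJ in orange and TyJ in blue, with large-subunit genes as the full-colour and small-subunit genes as the pale part of each bar, and dashed lines at the group medians. The bars run from 1.08% to 1.89% in RwwJ and from 1.12% to 2.23% in TyJ strains, and both parts grow together.

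Per kilobase of principal transcript, the highest mean levels were those of Rps21, at 21689 scaled counts per kilobase, Rps15 at 21271 and Rpl38 at 20808, followed by Rpl13a at 18142 and Rps14 at 17214. Rps21 and Rps15 are proteins of the small subunit, Rpl38 a protein of the large subunit needed in mice for normal patterning of the skeleton, and Rps14 a small-subunit protein whose loss affects red cell formation in humans. The lowest were Rpl3l at 34.2, Rps4l at 591 and Rpl5 at 1616, then Rpl36al at 1692 and Rpl18 at 2087. Rpl5, with Rpl11, also binds Mdm2, the ligase that holds p53 in check. These levels rest on 1 transcript length per gene, and reads of genes with near-identical copies elsewhere in the genome may have been assigned differently by the authors' counting, so levels per kilobase are uncertain for this family.

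Ribosomal protein genes varied more between strains than most genes. The SD of log2(scaled count + 1) over the 25 strains had a median of 0.38 in the 72 genes, against 0.25 over all 16152 genes with a mean of at least 10. The 90th percentile over strains was at least 2 times the 10th percentile in 30 of the 72 genes, against 23.9% of all genes. The median of this ratio was 1.95 in ribosomal protein genes and 1.51 in all genes. Of the 72 genes, 37 had their lowest level in BXD68 and 23 in BXD16, and 27 had their highest in BXD40, 21 in BXD1 and 9 in BXD36.

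The steadiest was Rpl4, a large-subunit protein, with an SD of 0.20. Its scaled counts were 13008 at the lowest, 15104 at the median and 17458 at the highest in RwwJ strains, and 13393, 18126 and 21479 in TyJ strains. Its lowest and highest strains, BXD68 and BXD36, were also near the ends of the share, so it moved with the family and by less. Rps21 moved by more, with 5355, 6629 and 9945 scaled counts in RwwJ strains and 5083, 9551 and 12802 in TyJ strains. Among the next steadiest by SD were Rpl22 at 0.25, Rpl7a at 0.27 and Rpl36al at 0.28, all of the large subunit.

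The largest spreads were those of Rpl3l, with an SD of 1.47, Rps4l with 0.60 and Rpl34 with 0.57, then Rps12 with 0.54 and Rps25 with 0.54. Rpl34, a large-subunit protein, had 3560, 6152 and 9548 scaled counts in RwwJ strains and 3219, 7354 and 11998 in TyJ strains (lowest, median and highest). Its lowest strain was BXD28 and its highest BXD1. Rps25, a small-subunit protein used by some viral entry sites, had its lowest values in BXD68 at 2644, BXD13 at 2865 and BXD60 at 3087, and its highest in BXD40 at 10157 and BXD9 at 10115.

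The genes moved together over the strains. The median Pearson r over their 2556 pairs was 0.91, with quartiles of 0.83 and 0.95. The median r of a ribosomal protein gene with the mean of the others was 0.95, and that of all tested genes 0.00853. Against the mean of the other ribosomal protein genes, 60 of 72 had an r of at least 0.9, and 1.22% of all genes had one, and 68 had an r of at least 0.8, against 3.63%. The median r was 0.96 within the 9 RwwJ strains and 0.95 within the 16 TyJ strains. All these values come from the same 25 libraries, and points share each library's scaling and RNA, so no p is given.

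Rpl27a followed the others most closely, with an r of 0.99, from 2906 scaled counts in BXD68 to 6825 in BXD40. Rps21, Rpl35a, Rps23 and Rps29 also had an r of 0.99. The slope of a gene's log2 value on the mean of the others ran from 0.54 in Rpl4 to 1.45 in Rpl34, so the family moved in one direction with unequal steps. What a gene left over around that line had a median SD of 0.12, against a median SD of 0.38 for the genes themselves. It was under 0.3 in 69 of the 72 genes, a loose cut, since the median SD of all tested genes was 0.25. The exceptions were Rpl3l, Rps4l and Rpl29, with an r of 0.21, 0.35 and 0.48, and the next lowest were Rps2 at 0.79 and Rpl28 at 0.81.

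**Figure D2:**
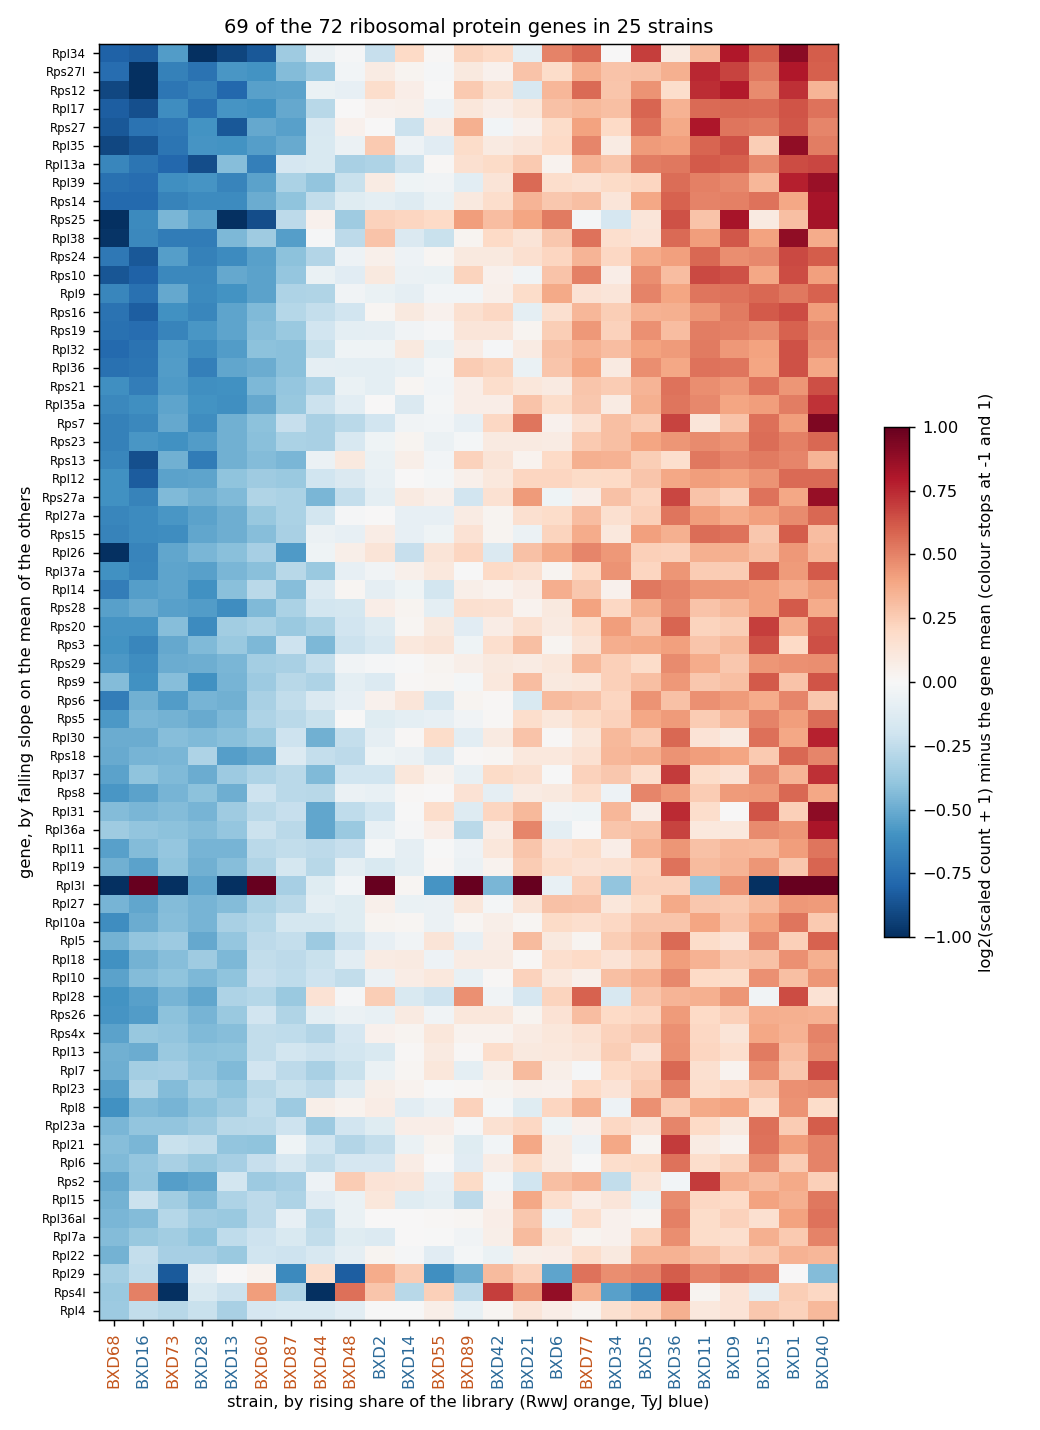
log2(scaled count + 1) of each of 69 of the 72 genes (Rpl3l, Rps4l and Rpl29 are drawn, and 3 others are not) minus its mean over strains, with strains from the lowest to the highest share (names of RwwJ strains in orange, of TyJ strains in blue) and genes from the steepest slope on the mean of the others, Rpl34 at 1.45, to the flattest, Rpl4 at 0.54; colours stop at -1 and 1. Most rows pass from blue to red together, and Rpl3l, Rps4l and Rpl29 break the order.

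The transcripts of ribosomal protein genes are short, with a median length of 803.5 bases against 2868.75 bases for all tested genes with a length, and other short transcripts moved with them. Among other genes with a mean of at least 1000, the median r with the mean of the ribosomal protein genes was 0.90 for 24 genes under 500 bases, 0.81 for 92 genes of 500 to 700 bases and 0.79 for 215 genes of 700 to 1000 bases. It was 0.07 for 1152 genes of 2000 to 3000 bases and -0.57 for 785 genes over 6000 bases. The ribosomal protein genes themselves had a median r of 0.94 to 0.97 in every length class that held any, including 0.97 for 4 genes of 1500 to 2000 bases, where the median of 586 other genes was 0.38. Rps20, the longest at 3706 bases by its annotated transcript, had an r of 0.94. The length classes here and below rest on 1 annotated length per gene. Whether the ganglion makes transcripts of that length was not tested, so the classes of single genes are uncertain.

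A measure of this pattern was made for each library as the median deviation of 662 other genes under 1000 bases minus that of 4004 genes of at least 4000 bases (log2, genes with a mean of at least 100). It ran from -0.46 to 0.06 in RwwJ strains and from -0.42 to 0.68 in TyJ strains, and its highest values were those of BXD40 at 0.68, BXD36 at 0.63 and BXD21 at 0.51. The share of ribosomal protein genes followed it with a Pearson r of 0.85 and a Spearman rho of 0.94 over 25 strains, and r was 0.92 within RwwJ and 0.80 within TyJ strains. Without BXD36 and BXD40, the 2 strains farthest from its median, r was 0.85. Against the estimated reads of the library, r was -0.43 over the 24 strains with an estimate. The part of the short-transcript pattern in the share was not tested.

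Each gene was therefore also centred, in each library, on the other genes of its own length class, an alternative chosen after the data were seen. The members' mean then differed 1.51-fold between its highest and lowest strain, against 2.23-fold as deposited. The median SD was 0.23, against 0.21 for all genes centred in the same way. The median pairwise r was 0.67, and 39 of the 72 genes had an r of at least 0.8 with the mean of the others, against 0.825% of all genes. Rpl17 at 0.97, a large-subunit protein, and Rpl32 at 0.97 still followed the others closely, whereas Rpl36a had an r of -0.10, Rpl31 of 0.29 and Rpl23a of 0.38.

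**Figure D3:**
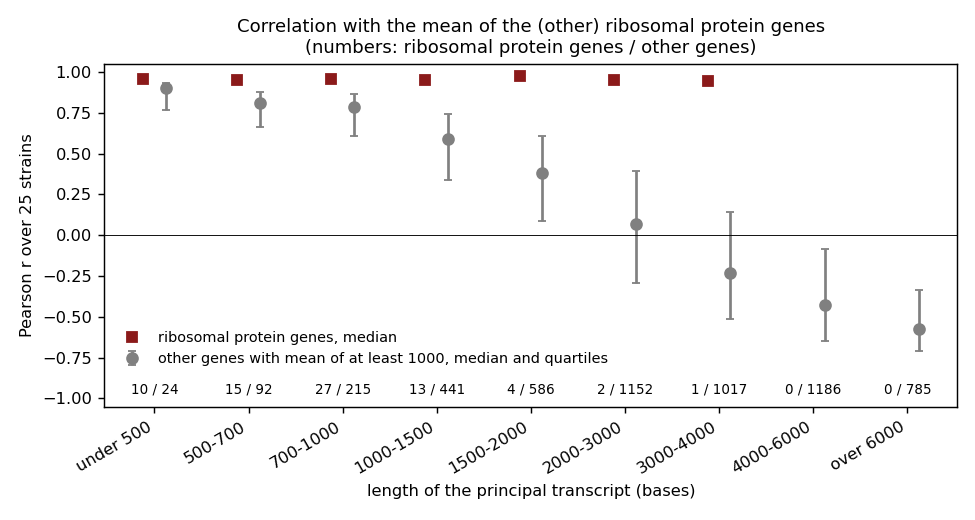
Median Pearson r over 25 strains with the mean of the ribosomal protein genes (for a ribosomal protein gene, of the others), by length of the principal transcript in bases, for ribosomal protein genes (red squares) and for other genes with a mean of at least 1000 scaled counts (grey circles, bars to the quartiles). The grey medians fall class by class to -0.57, while the red squares lie at 0.94 to 0.97 in all 7 classes that hold members.

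The genes most like the family over the strains, by their r with the mean of the 72, were Atp5mpl at 0.98, a small subunit of ATP synthase, Naca at 0.97, which binds nascent chains at the ribosome, and Rps3a1 at 0.97, a small-subunit protein whose symbol fell outside the rule. Then came Pfdn5 at 0.97, a subunit of the chaperone prefoldin, Snrpg at 0.97, a core protein of the spliceosome, Rplp1 at 0.97, of the ribosomal stalk, Dpy30 at 0.97, Eef1b2 at 0.96, an elongation factor subunit, Chchd1 at 0.96 and Rpl22l1 at 0.96. Of these 10, Pfdn5 had the highest r after centring on length, 0.97, and Rplp1 the lowest, 0.55. The lowest r were those of Clstn1 at -0.94, a calsyntenin of neurons, Ptprs at -0.92, a receptor phosphatase, Pcnx2 at -0.91, Acox3 at -0.90 and Ocrl at -0.90. Their transcripts were of 3319 to 7236 bases.

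Other parts of the translation machinery were described by lists. Of 10 further cytoplasmic ribosomal protein genes, the median r with the 72 was 0.92. Among the lowest were Rpl7l1 at 0.62, Rpsa at 0.70 and Rplp0 at 0.74. Rplp2 had 0.91, Fau 0.94 and Rack1, a signalling scaffold on the small subunit, 0.96.

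Of 26 translation factors the median r was 0.64, with 10 at 0.8 or more. The elongation factor subunits Eef1b2 at 0.96 and Eef1a1 at 0.92, Tpt1 at 0.94 and Eif3h at 0.95 were among the highest, and Pabpc1, which binds the poly(A) tail, had 0.88. Eef1a2, the form of neurons and muscle, had -0.30, and Eif4g1, the scaffold of initiation, -0.86. Eef2, the elongation factor that moves the ribosome along, had 0.24, Eif3f 0.56 and Eif4b 0.13. The median of the list after centring on length was 0.41.

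Genes that make ribosomes moved less with the family. Of 24 genes of ribosome biogenesis the median r was 0.17, with Nhp2 at 0.89, Nop10 at 0.76 and Npm1 at 0.75, and with Polr1a, the large subunit of RNA polymerase I, at -0.71. Of 16 known regulators of ribosomal protein genes or their translation the median was -0.28, and -0.06 after centring. Mtor had -0.76, Rptor -0.84, Tsc1 -0.78 and Larp1 -0.69. These are long transcripts, of 6594 to 8564 bases, in the classes where the median gene also had a negative r, and after centring their r was -0.43, -0.61, -0.54 and -0.32. The transcription factors Gabpa, Yy1 and Sp1 had an r of 0.31, 0.17 and 0.30 as deposited, and of 0.59, 0.47 and 0.65 after centring. Myc, another transcription factor of the list, went the other way, with 0.38 as deposited and -0.17 after centring. Of 77 genes of the mitochondrial ribosome the median r was 0.69, and 0.16 after centring.

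RwwJ and TyJ strains were compared gene by gene with limma on log2(scaled count + 1), two-sided, with Benjamini-Hochberg adjustment over all 16152 genes. No ribosomal protein gene passed an adjusted p of 0.05, and neither did any other gene (0.0%); the smallest adjusted p among the 72 was 0.29. At an unadjusted p under 0.05, 55 of the 72 were lower in RwwJ and none was higher, where 8.92% of all genes were lower and 6.19% higher. The log2 difference RwwJ minus TyJ was below 0 in all 72, against 51.2% of all genes, with a median of -0.32 and a range of -0.52 to -0.13. Because the 72 genes move together, these counts do not stand for 72 separate observations. The groups overlapped in all 72 genes, and in every other gene tested (0.0% did not overlap).

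Rpl15, a large-subunit protein, had the smallest p. It had 2547 scaled counts at the lowest, 2942 at the median and 3705 at the highest in RwwJ strains, and 2623, 3910 and 5097 in TyJ strains. The groups overlapped between 2623 and 3705, and the log2 difference was -0.32 ± 0.10 (SE; unadjusted p = 0.00307, limma adjusted p = 0.29). The next were Rpl29 with -0.52 ± 0.16, Rpl36a with -0.41 ± 0.13, Rps18 with -0.36 ± 0.12 and Rps27a with -0.42 ± 0.14 (log2 difference ± SE, limma adjusted p = 0.29 for each). Rpl36a and Rps18 are structural proteins of the large and small subunit, and Rps27a is made as a fusion with ubiquitin.

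Members known beyond the ribosome also overlapped between the groups. Rps19 and Rps24, small-subunit proteins mutated in Diamond-Blackfan anaemia in humans, had 2565, 3753 and 5789 scaled counts (Rps19: lowest, median and highest) and 3115, 4176 and 6481 (Rps24) in RwwJ strains, against 2532, 5063 and 6469 (Rps19) and 2848, 5912 and 8092 (Rps24) in TyJ strains. Rpl5 and Rpl11, the pair that binds Mdm2, had 2322, 2734 and 3525 (Rpl5) and 3740, 4589 and 6182 (Rpl11) in RwwJ strains, against 2265, 3610 and 4862 (Rpl5) and 3939, 6301 and 7881 (Rpl11) in TyJ strains. Rps6, the small-subunit protein that the kinases downstream of mTOR phosphorylate, had 3143, 4534 and 6199 in RwwJ and 3632, 5991 and 7105 in TyJ strains. In each of these 5 genes the RwwJ median was the lower one and the ranges of the groups overlapped.

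The X chromosome carries 4 of the genes, Rpl10, Rpl36a, Rpl39 and Rps4x. Their log2 differences RwwJ minus TyJ were -0.31 ± 0.11 for Rpl10, -0.41 ± 0.13 for Rpl36a, -0.49 ± 0.17 for Rpl39 and -0.28 ± 0.11 for Rps4x (± SE, limma adjusted p = 0.29 to 0.296), within the range of the autosomal genes. Rpl39, a very small protein near the exit tunnel of the large subunit, had 2325, 3118 and 4328 scaled counts in RwwJ and 2298, 4472 and 7072 in TyJ strains.

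The short-transcript measure also differed between the groups, with a mean of -0.185 ± 0.158 in RwwJ (SD, n = 9) and 0.106 ± 0.335 in TyJ strains (SD, n = 16). After centring on genes of like length the median difference of the 72 was -0.12, and 17 were lower at an unadjusted p under 0.05, where 4.9% of all genes were lower. Without BXD21, BXD36 and BXD40, all TyJ and all high in that measure, the median was -0.27 and 27 were lower at an unadjusted p under 0.05, where 4.74% of all genes were lower. None of the 10 other ribosomal protein genes, the 26 translation factors, the 24 biogenesis genes, the 16 regulators or the 77 mitochondrial ones passed the adjusted threshold in either direction.

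Libraries also differed in their mixture of cells. A score was made for each of 8 cell types or tissues, the mean log2 of its markers. Each gene's slope on each score alone was fitted across all genes with limma, so slopes on scores that vary together are not separate associations. Because the 72 genes move together, the counts below do not stand for 72 separate observations. The highest count was on the score of macrophages, the resident immune cells of the ganglion: 69 of 72 ribosomal protein genes rose with it and none fell, where 14.4% of all genes rose and 11.3% fell. All 10 macrophage markers, among them the complement genes C1qa and C1qb and the receptor Csf1r, had a positive r with the family, none was at 0 in any library, and their summed levels were 3715 to 8183 in RwwJ and 3130 to 9334 in TyJ strains. Rps24 had a slope of 0.38 ± 0.05 log2 per SD of the score (SE, limma adjusted p = 1.51e-05), Rpl34 of 0.48 ± 0.06 (adjusted p = 1.51e-05) and Rps27 of 0.42 ± 0.06 (adjusted p = 1.62e-05). Rpl29 at 0.06 ± 0.09, Rps4l at 0.15 ± 0.11 and Rpl3l at 0.18 ± 0.29 did not pass the test. After centring on length, for which every score was also rebuilt from the centred values, 58 of the 72 rose, against 11.1% of all genes. All 58 were among the 69. The share had a Pearson r of 0.79 with the score over 25 strains, 0.87 within RwwJ and 0.88 within TyJ strains.

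With the score of red cell genes, which are themselves short (median 701 bases), 68 of 72 rose and none fell, where 10.1% of all genes rose and 6.13% fell. The globins Hba-a1 and Hbb-bs ranged from 1183 to 11221 and from 3557 to 27528 scaled counts, and all 6 markers had a positive r with the family. Rpl36al had a slope of 0.21 ± 0.04 (SE, limma adjusted p = 0.000907), Rpl39 of 0.34 ± 0.07 (adjusted p = 0.00198) and Rpl35 of 0.34 ± 0.07 (adjusted p = 0.00524). The 4 that did not pass were Rpl3l at 0.59 ± 0.26, Rps4l at 0.22 ± 0.11, Rps2 at 0.15 ± 0.06 and Rpl29 at 0.07 ± 0.09. After centring on length 2 of the 72 passed, Rpl39 and Rpl36al, which is near the 2.15% of all genes that rose. Without BXD21, BXD36 and BXD40 the count was 16, and 3.53% of all genes rose. BXD1 had the highest score of all strains for both red cells, 12.4, and macrophages, 9.36, and the slopes on these scores were not separated.

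With the pan-neuronal score 18 of the 72 fell and none rose, where 10.5% of all genes fell and 6.02% rose. Among them, Rps12 had a slope of -0.31 ± 0.09 (SE, limma adjusted p = 0.017) and Rps27 of -0.28 ± 0.08 (adjusted p = 0.0176), both of the small subunit. Of the 10 neuronal markers 2 had a positive r with the family, Uchl1 at 0.44 and Stmn2 at 0.30, and Elavl3 had the lowest, -0.76. Their summed levels were 327596 to 436771 scaled counts in RwwJ and 313514 to 458605 in TyJ strains. The count depended on the scaling and on single libraries: it was 64 with equal library totals (13.8% of all genes fell), 30 without BXD36 (10.6%), 69 without BXD21, BXD36 and BXD40 (16.6%) and 52 after centring on length (12.9%), all of them genes that fell.

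With the score of satellite glia, which wrap the neuron cell bodies, 31 rose and none fell, where 6.35% of all genes rose and 6.69% fell, led by Rpl35a at 0.26 ± 0.07 (SE, limma adjusted p = 0.014) and Rpl27a at 0.22 ± 0.06 (adjusted p = 0.0217). This count was 59 without BXD48 (9.96% of all genes rose), 4 without BXD36 (2.97%), 3 with equal totals (2.69%) and 1 without BXD21, BXD36 and BXD40 (1.57%). It was 0 after centring (1.41%), where 11 had an unadjusted p under 0.05, against 10.3% of all genes that rose at that threshold. With the fibroblast score 5 rose and none fell, where 9.06% of all genes rose and 4.28% fell. They included Rps16, Rps12, Rps13 and Rpl37a, at 0.19 to 0.29 per SD. That count was 17 without BXD36 (9.49% of all genes rose), 65 without BXD21, BXD36 and BXD40 (16.6%), 25 after centring (10.8%) and 3 with a prior that had no trend (9.01%). With the spinal cord score 6 rose and none fell, where 3.95% of all genes rose and 2.41% fell. They included Rpl28 at 0.24 ± 0.06 (SE, limma adjusted p = 0.00785), Rpl8, Rps2, Rpl14 and Rpl26. It was 20 without BXD48 (4.12% of all genes rose), and after centring 16 rose and Rpl36a fell, where 5.32% of all genes rose and 3.61% fell. Of the 8 spinal cord markers, Slc32a1 and Opalin were at 0 in some libraries. With the score of myelinating Schwann cells no ribosomal protein gene passed the adjusted threshold, where 0.409% of all genes rose and 0.0124% fell. At an unadjusted limma p under 0.05, 2 ribosomal protein genes rose, Rps4l and Rps25, and none fell. At that threshold 5.88% of all genes rose and 3.89% fell. The part of the cell mixture in the share was not tested beyond these slopes.

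**Figure D4:**
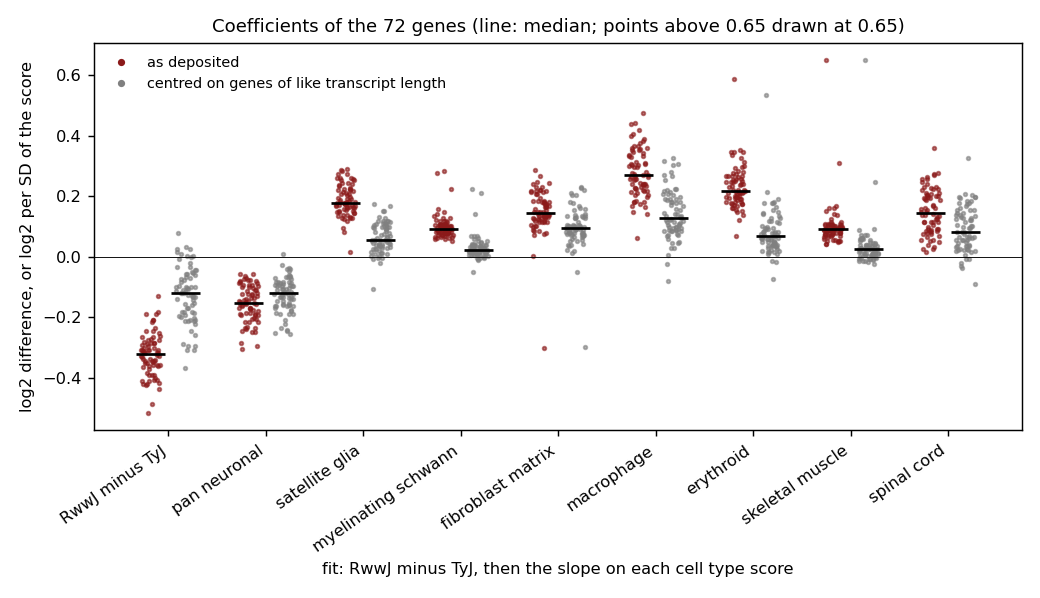
Fitted coefficients of the 72 genes in 9 limma fits, as deposited (red) and after centring on genes of like transcript length (grey): the log2 difference RwwJ minus TyJ at the left, then the log2 slope per SD of each cell type score, with lines at the medians. The median RwwJ minus TyJ moves to -0.12 in grey, against -0.32 in red, and that for macrophages to 0.13 in grey, against 0.27 in red. Grey slopes are per SD of scores rebuilt from the centred values, so their unit is not that of the red ones. The points at 0.65 in the skeletal muscle columns are Rpl3l, whose slope as deposited was 1.37.

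Rpl3l, a large-subunit copy made in skeletal and heart muscle in place of its widely expressed relative, followed the score of skeletal muscle genes, and had an r of 0.21 with the other ribosomal protein genes. It had 4 scaled counts at the lowest, 28 at the median and 147 at the highest in RwwJ strains, and 2, 33.5 and 171 in TyJ strains. The highest strains were BXD16 at 171, BXD60 at 147 and BXD21 at 120, and the lowest BXD13 at 2, BXD15 at 3 and BXD68 at 4. Its slope on the skeletal muscle score was 1.37 ± 0.11 log2 per SD (SE, limma adjusted p = 7.93e-10), and it was the only ribosomal protein gene of 72 called with that score, against 0.619% of all genes. The muscle score was highest in BXD60 at 11.6 and BXD16 at 11.3 (mean log2 of 10 markers) and lowest in BXD73 at 5.03 and BXD68 at 5.05. With genes of a mean of at least 50 only, Rpl3l was not tested, and the count was 0.

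Rpl29, a large-subunit protein that also binds heparin, lay at separate levels relative to the other ribosomal protein genes. In 8 strains it was 0.49 to 1.13 below its median position (log2, relative to the mean of the others): BXD40, BXD48, BXD6, BXD55, BXD89, BXD1, BXD87 and BXD73, which were 5 RwwJ and 3 TyJ strains. In the other 17 strains, 4 RwwJ and 13 TyJ, it lay between -0.12 and 0.33, leaving a gap of 0.37. BXD40, with the highest share of all, had 1791 scaled counts of Rpl29, while BXD36 had 3670. In RwwJ strains Rpl29 had 1351, 1723 and 3517 scaled counts at the lowest, median and highest, and in TyJ strains 1675, 2950 and 3670. Of the 70 ribosomal protein genes with a mean of at least 1000 it was the only one with a gap of at least 0.3 and at least 5 strains on each side, and 0.912% of 5595 genes of that level had one. These sides were drawn from the values and carry no test.

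**Figure D5:**
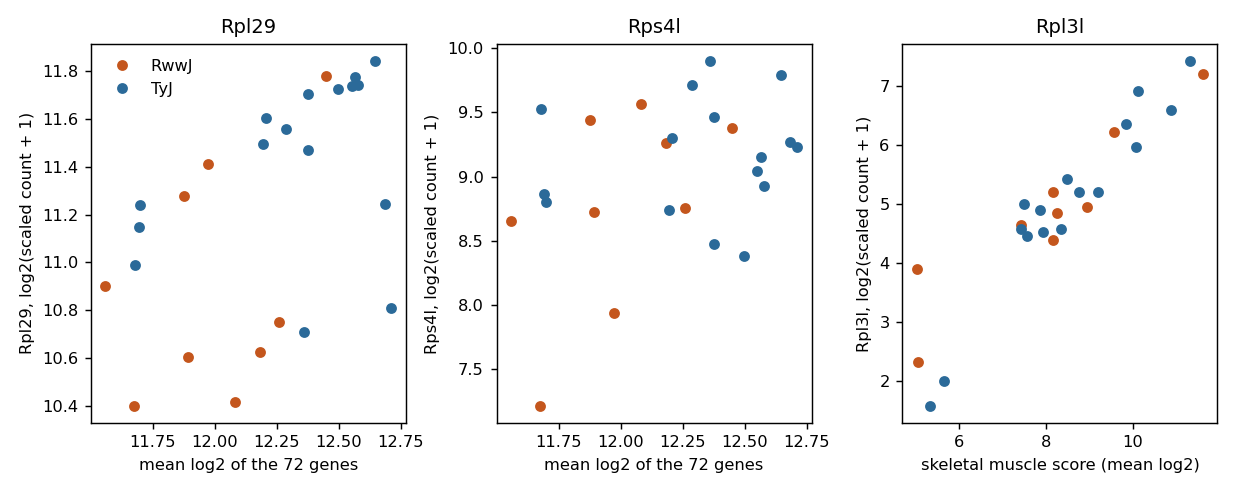
log2(scaled count + 1) of Rpl29 and Rps4l against the mean log2 of the 72 genes, and of Rpl3l against the skeletal muscle score, with 1 point for each of 25 strains (RwwJ orange, TyJ blue). In Rpl29, 8 strains lie below the line formed by the other 17, Rps4l forms no line (r = 0.35), and Rpl3l climbs with the muscle score from 2 to 171 scaled counts.

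Most copies of other ribosomal protein genes followed the gene they copy, about as closely as ribosomal protein genes followed each other. The median Pearson r over all pairs of ribosomal protein genes was 0.91, with quartiles of 0.83 and 0.95. Except for Rps4l, the copies below had an r within these quartiles, so their r does not set copy and parent apart. Rps27l, a copy of Rps27 known as a target of p53, had 30.3% of the scaled counts of Rps27 at the lowest (BXD16) and 49.7% at the highest (BXD13), with a Pearson r of 0.95 over strains. Rpl36al had 30.4% to 46.7% of the level of Rpl36a, with an r of 0.89. Rpl22l1 had 17.7% to 37.7% of Rpl22 with an r of 0.93, and Rpl7l1 16.3% to 26.7% of Rpl7 with an r of 0.84. Rps4l had 2.37% of Rps4x in BXD73 and 11.6% in BXD16, with an r of 0.35. Rps4l had 148, 431 and 758 scaled counts in RwwJ strains and 332, 584 and 953 in TyJ strains, with the lowest in BXD73 at 148 and BXD44 at 244. Reads of such copies can be split or lost by the counting, which is not described in enough detail in the sources used here, so ratios between copies are uncertain.

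Some other genes departed from the family by less. Relative to the mean of the others, Rpl31, a large-subunit protein, lay lowest in BXD9 at -0.42, BXD44 at -0.35 and BXD77 at -0.35. It lay highest in BXD40 at 0.33 (log2, from its median position). In scaled counts Rpl31 was at its highest in BXD40 at 7175, as were 27 of the 72 genes in that strain. It had 6463 in BXD36, 5973 in BXD15 and 4849 in BXD21. Its lowest was BXD44 at 2698, a strain with a share of 1.40%. Rpl36a, with 2320 to 3497 scaled counts in RwwJ and 2466 to 5865 in TyJ strains, also had its lowest value in BXD44 and its highest in BXD40. Rpl28, which rose with the spinal cord score, had 2582, 3394 and 5892 scaled counts in RwwJ and 2684, 4082 and 6158 in TyJ strains, with the smallest difference between the groups of all 72 genes, -0.13 ± 0.15 (SE, limma adjusted p = 0.66).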

How the data were processed

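Dorsal root ganglia of 25 BXD strains were measured by RNA sequencing, 1 library a strain. Per the labels' protocols, Trizol was used for RNA and TruSeq RNA v2, a kit without strand marking, for libraries. CASAVA 1.8.0, TopHat2 2.0.9 and HTSeq, with the builds NCBIM37 and mm9, are named in the submitters' processing notes. The deposited unit was a score: whole numbers which the values show to be read counts that the authors brought to the same upper quartile and rounded. The sources used here give neither the tool nor any filter. No count model was fitted.

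Symbols, biotypes, chromosomes and transcript lengths came from GENCODE and matched 15697 of 16220 identifiers; its build is later than that of the deposited table, so promoter coordinates refer to RefSeq alone. Reads per library were estimated from the step between low values, which was clear in 24 libraries. Tests used R 4.3.3 and limma 3.58.1, with a trended prior, on log2(scaled count + 1), for 16152 genes of mean at least 10, with Benjamini-Hochberg adjustment at 0.05; the log2 values are computed from the deposited scores, and fold changes of low genes are understated. The fits were tested on simulated data.

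Named genes were the extremes of level per kilobase, SD, p between groups and r with the other members (5 each), the 3 of smallest p in each cell type fit, copies, the list of other ribosomal proteins, and the 10 other genes most and 5 least like the members. Other genes named from the lists, 3 members of low r after centring, the members named for disease or for the X chromosome, and the strains of Rpl31 were chosen after their values were seen. Some genes that this rule names are not reported here by name, and they stay in all counts. Members and lists were chosen with earlier results of these data known. Alternatives were pseudocounts, filters, scalings, prior, array weights, libraries left out, and centring on length.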

Additional observations from a re-analysis of the deposited data

Results flagged for a closer look

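Of 73 groups of 9 RwwJ values examined (72 genes and the share), 1 held a library far from the others: Rpl3l had 147 scaled counts in BXD60, and the next highest RwwJ strain had 74, a gap of 0.51 of the group's whole range, above the critical value of 0.493 for 9 libraries. Chance flags about 1 in 20 groups. BXD60 also had the highest skeletal muscle score, 11.6. The 16 TyJ strains were too many for this check.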

How the results depend on the processing

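Of 199 results recomputed under an alternative, 178 kept their direction and their side of the threshold or stayed within the limits set for a count or value, and 21 moved; none reversed. The share and the 0 ribosomal protein genes called between RwwJ and TyJ strains were among those kept. The median SD counted as kept against the spread of single genes (0.152), but centring on length brought it to 0.232, against 0.384 as deposited. With array weights 6 genes of the table passed between the groups and without BXD48 3 did, none of them ribosomal protein genes. Scaling to equal totals moved libraries by up to 0.125 and to the median ratio of other genes by up to 0.075 (log2, between extremes).

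Counts of ribosomal protein genes called by slope moved as follows, and the cause was not tested. The shares of all genes that are not repeated here stand beside the slopes above. For the pan-neuronal score the count was 18, and 64 with equal totals, 30 without BXD36, 69 without BXD21, BXD36 and BXD40 and 52 centred on length. For satellite glia it was 31, and 3, 4, 1 and 0 under the same settings, and 59 without BXD48. For fibroblasts it was 5, and 17 without BXD36, 65 without the 3 libraries, 25 centred and 3 with no trend. For red cells it was 68, and 16 without the 3 libraries and 2 centred. For spinal cord it was 6, and 20 without BXD48, all of them genes that rose. It was 17 centred, of which 16 rose and 1 fell. With a mean of at least 50, 10 rose, where 4.41% of all genes rose. For skeletal muscle it was 1, and 0 with a mean of at least 50, which removes Rpl3l and where 0.418% of all genes rose. Centring also gave a median pairwise r of 0.671, against 0.91, and a median r with the other members of 0.813, against 0.955. No paired analysis was possible because each strain has 1 library and the groups share no replicate.

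With 1 library a strain, a strain's level carries no error of its own. Counting error, computed at each gene's mean level, was at most 2.21% of the variance of any of these genes. This understates it for Rpl3l, whose levels were low.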
